A study of Mus musculus with 9 samples.

Results

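Tags from FMRP immunoprecipitates of mouse brain polysomes piled up in 4 short stretches of the genome that lie outside every gene given bounds in the authors' gene table. The stretches are 1-kb windows, each on 1 strand, of the mouse build mm9: chr11:108873001-108874000 on the minus strand, chr3:5860001-5861000 on the plus strand, chr16:57391001-57392000 on the minus strand and chr16:17222001-17223000 on the plus strand. They are called here the chr11 region, the chr3 region, the chr16 distal region and the chr16 proximal region. A member is a sequenced tag whose middle base falls in 1 of these windows. There were 2570 such tags among 321854 genomic tags of 9 libraries, and 4 such windows among 122638 windows and strands that held any tag. The windows were selected on their FMRP tag counts summed over the 7 FMRP libraries, so those sums, and every comparison of FMRP with Hu or of the protocols in them, are given as a description with no p. Antibody and age are tested among the 454 libraries, whose tags are part of the same sums.

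Each library came from pooled littermate FVB mice, whose cortex and cerebellum were freed of white matter, and whose polysomes were purified after crosslinking with ultraviolet light. In Protocol 1, which uses 1% SDS and 454 sequencing, FMRP was precipitated with the mixed monoclonal antibodies 7G1-1 and 2F5 at postnatal days 14, 15 and 25 (P14, P15 and P25; n = 3) or with the polyclonal antibody ab17722 at P14 and P25 (n = 2). In Protocol 2, which uses 2% SDS and Illumina sequencing, FMRP was precipitated with ab17722 at P11 and P13 (n = 2), and a portion of each of the same lysates went to a human anti-Hu antiserum (n = 2). Libraries of 1 group differ in age, so their spread holds age as well as the pool, and Protocol 2 differs from Protocol 1 in dissociation, platform and age at once. Libraries of Fmr1-null littermates were not analysed here.

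FMRP, the protein lost in fragile X syndrome, is an RNA-binding protein that sits largely on polysomes in neurons and is known for holding back the translation of its bound mRNAs. The Hu proteins are neuronal RNA-binding proteins that prefer U-rich stretches and are known for stabilising mRNAs and promoting their translation, and here they serve as a second polysome-associated protein. In HITS-CLIP, ultraviolet light links a protein to the RNA it touches, the RNA is trimmed by a nuclease, the protein is precipitated, and the short RNA left on it is sequenced as a tag. A pile-up of tags marks a place where fragments were recovered again and again.

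All 4 regions lay between genes by the mm9 bounds in the authors' table, which gives them for 19780 entries and leaves 11219 of its 30999 entries without. The chr11 region lay 60.9 kb above Axin2 (chr11:108781663-108812095), a scaffold gene of Wnt signalling, and 127 kb below E030025P04Rik (chr11:109000605-109005683). The chr3 region was the most isolated, 284 kb above the peroxisome assembly gene Pex2 (chr3:5560512-5576128) and 1510 kb below Pkia (chr3:7366604-7445365), which encodes an inhibitor of protein kinase A. The chr16 distal region lay 159 kb above Tbc1d23 (chr16:57168977-57231579) and 143 kb below an entry with no mouse symbol and the human symbol FILIP1L (chr16:57535162-57535750). The next named gene was the collagen gene Col8a1 (chr16:57624369-57754850), at 232 kb. The chr16 proximal region had the closest neighbours, the ubiquitin-conjugating enzyme gene Ube2l3 (chr16:17152108-17201585) at 20.4 kb and the transcription factor gene Hic2 (chr16:17233680-17263523) at 10.7 kb.

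Being outside genes rests on that table alone. The RefSeq gene table of the later build GRCm38, in which 19342 of the 19780 entries were found by gene ID, was used only for the order of genes. Between the same flanking genes it holds 2 genes for the chr11 region (the long noncoding RNA Gm36876 and the small nuclear RNA Gm24149) and 12 for the chr3 region, mostly pseudogenes. It holds 7 for the chr16 distal region, among them Cmss1, Filip1l and Tmem30c, and 2 for the chr16 proximal region, the small nuclear RNA Gm22129 and the protein-coding Rimbp3. Copies of rRNA, small nuclear RNA or repeats inside the regions could not be looked up in mm9. None of the genes between the flanks has the biotype rRNA, which does not address such copies. The protein-coding genes among them (1 for chr3, 3 for the chr16 distal and 1 for the chr16 proximal region) are in the authors' table without mouse bounds. Cmss1 stands there under its older symbol 2610528E23Rik and Filip1l under 4631422O05Rik. The entry with the human symbol FILIP1L given above is a separate one that carries bounds. Whether any of them spans a region in mm9 cannot be told from these files. Their transcripts carried 0 FMRP and 0 Hu tags in the deposited transcript lists.

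The neighbouring genes carried few tags of their own. Summed over all libraries, the transcript lists gave Axin2 8 FMRP and 1 Hu tags, Pex2 3 and 0, Pkia 6 and 40, Tbc1d23 9 and 1, Col8a1 0 and 1, Ube2l3 9 and 8, and Hic2 3 and 2. Only 2 of the 2570 member tags had a name that also stood in a transcript list, where 10.6% to 60.2% of the other genomic tags of a library did. The regions were taken as pile-ups outside genes, so a low share was largely set by that choice.

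The 454 libraries held 7439 to 12153 genomic tags and the Illumina libraries 43593 to 98832, so 3 tags are 2.47 to 4.03 per 10000 on 454 and 0.304 to 0.688 per 10000 on Illumina. Of the labelled tissue's markers in the transcript lists, all 6 neuronal genes had tags (432 FMRP, 771 Hu), as did all 5 astrocyte genes (138 and 14) and all 4 oligodendrocyte genes (125 and 677). Microglial genes had 5 FMRP and 1 Hu tags and endothelial genes 4 and 1, with Cx3cr1, C1qa and Cldn5 at 0. Of 5 genes of other organs 1 had tags (2, in FMRP), with Alb, Myh6, Ins2 and Ckm at 0.

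The chr11 region was the third busiest window of the genome in FMRP tags, the chr3 region shared the fourth place with a mitochondrial window at 721 tags, and the chr16 regions were the seventh and the ninth. Together they took 2407 of 163904 FMRP tags (1.47%) and 163 of 157950 Hu tags (0.103%). The chr16 proximal region, the smallest, had 211 FMRP tags, and the next window outside genes had 190. Some busier windows outside genes, with up to 3337 FMRP tags, are not among the 4.

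By listed tags, the chr11 region was about as strong on both platforms. It held 39 tags in the P14 monoclonal, 80 in the P15 monoclonal, 68 in the P25 monoclonal, 88 in the P14 polyclonal and 48 in the P25 polyclonal 454 library. It held 269 and 542 tags in the P11 and P13 FMRP Illumina libraries and 31 and 47 in the P11 and P13 Hu libraries. Per 10000 genomic tags that was 61.4 ± 14.9 (SD, n = 5) on 454, 70.6 ± 12.6 (SD, n = 2) in FMRP on Illumina and 5.00 ± 0.345 (SD, n = 2) in Hu. The FMRP ranges of the platforms, 44.9 to 80.6 and 61.7 to 79.5, overlapped, and both Hu libraries lay below all 7 FMRP libraries. The 454 lists give each position 1 tag and the Illumina lists keep tags that share a position, so levels are unlike measures between platforms. With 1 tag per position, the log2 difference of Protocol 2 less Protocol 1, polyclonal antibody alone, was -1.01 for chr11.

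By listed tags, the chr3 region was higher on Illumina. Its 454 libraries held 13 (P14), 15 (P15) and 19 (P25) tags with the monoclonal and 31 (P14) and 12 (P25) with the polyclonal antibody. The P11 and P13 FMRP Illumina libraries held 244 and 387, and the Hu libraries 14 and 18. The levels were 17.3 ± 6.62 (SD, n = 5), 56.4 ± 0.559 (SD, n = 2) and 2.09 ± 0.387 (SD, n = 2) per 10000. The highest 454 library, at 28.4, stayed under the lower Illumina library, at 56.0.

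Both chr16 regions were thin on 454. The chr16 distal region held 3, 6 and 5 tags in the P14, P15 and P25 monoclonal and 7 and 3 in the P14 and P25 polyclonal libraries, against 86 and 231 in the P11 and P13 FMRP Illumina libraries and 14 and 20 in Hu. Its levels were 4.57 ± 1.40 (SD, n = 5), 26.8 ± 10.0 (SD, n = 2) and 2.20 ± 0.244 (SD, n = 2) per 10000. The chr16 proximal region held 4, 4 and 12 tags in the P14, P15 and P25 monoclonal and 7 and 5 in the P14 and P25 polyclonal libraries, 50 and 129 in the P11 and P13 FMRP Illumina libraries, and 12 and 7 in Hu. Its levels were 6.00 ± 2.39 (SD, n = 5), 15.2 ± 5.27 (SD, n = 2) and 1.37 ± 0.934 (SD, n = 2) per 10000. In both, by listed tags, the FMRP Illumina libraries lay above every 454 library, and the 95% Wilson intervals of the 5 454 libraries overlapped. With 1 tag per position, the log2 difference of Protocol 2 less Protocol 1, polyclonal antibody alone, was -0.20 for chr16 proximal and 2.02 for chr16 distal. In both regions the intervals of some 454 libraries also overlapped those of Hu. In chr16 distal the P25 polyclonal library was at 2.80 (0.954 to 8.24) and P11 Hu at 2.37 (1.41 to 3.97).

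**Figure D1:**
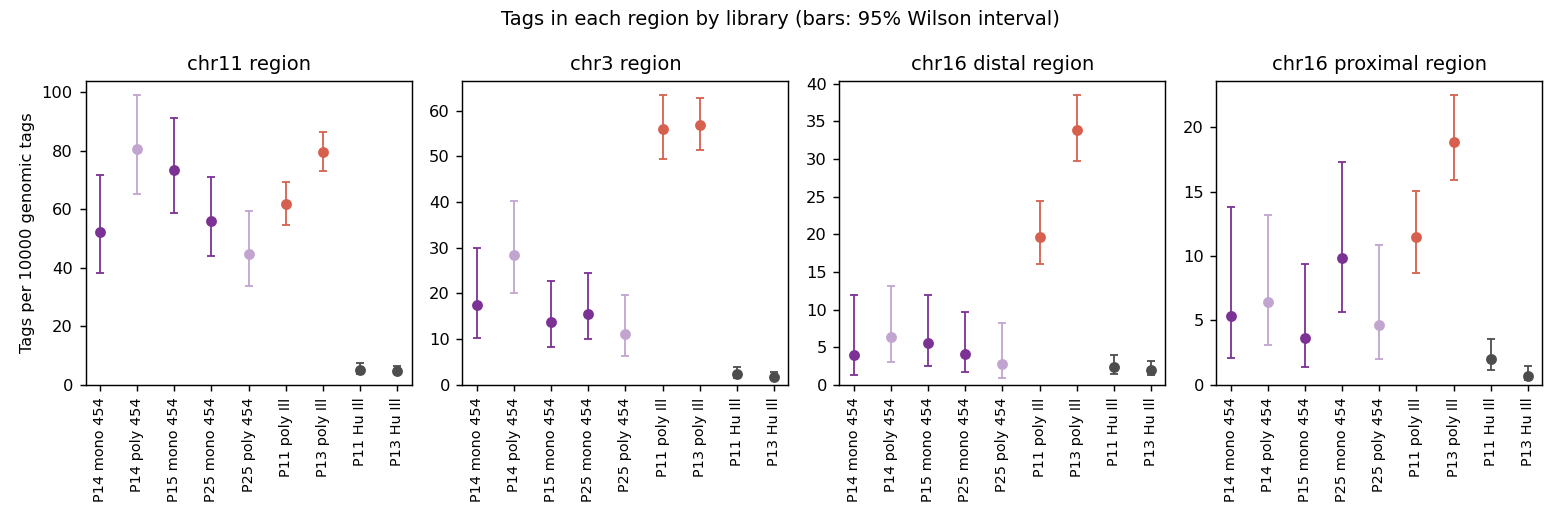
Tags per 10000 genomic tags of the library (vertical axis) in each of the 9 libraries (horizontal axis; mono, monoclonal; poly, polyclonal; Ill, Illumina) for the 4 regions, with 95% Wilson intervals that cover counting error only. The Hu libraries sit between 0.708 and 5.24, below every FMRP library of the same region, but in both chr16 regions some 454 intervals overlap those of Hu. By listed tags, the Illumina FMRP libraries stand above the 454 ones in the chr3 and both chr16 regions and among them in the chr11 region. The Illumina lists keep tags that share a position and the 454 lists do not.

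Within the lysates shared by both precipitates, FMRP exceeded Hu in all 4 regions. As a ratio of tags per library tag over both lysates, FMRP stood 27.9 times above Hu in the chr3 region (95% counting interval 19.5 to 41.1), 14.7 times in the chr11 region (11.6 to 18.8), 13.3 times in the chr16 proximal region (8.28 to 22.6) and 13.2 times in the chr16 distal region (9.23 to 19.4). The ratio was higher in the P13 than in the P11 lysate in each: 16.7 and 11.8 for chr11, 31.2 and 23.6 for chr3, 16.7 and 8.33 for chr16 distal, and 26.7 and 5.65 for chr16 proximal. The last pair rests on 7 and 12 Hu tags. With 1 library per lysate and protein, the change between lysates has no replicate check.

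A fit over all windows gives these ratios their background. In edgeR's quasi-likelihood fit of the 4 Illumina libraries, the regions had log2 ratios of 4.44 (SE 1.77) for chr11, 5.28 (SE 1.91) for chr3, 4.32 (SE 1.95) for chr16 distal and 4.20 (SE 2.05) for chr16 proximal, and of 540 windows that passed the filter on low counts 53 (9.81%) were called at an adjusted p under 0.05. All 53 were higher in FMRP. With the lysate as a block, 0 of 540 were called by edgeR (74 at an unadjusted p under 0.05), and the regions' log2 ratios were 4.11 for chr11, 5.06 for chr3, 3.86 for chr16 distal and 3.88 for chr16 proximal. With library totals in place of edgeR's scaling, 111 were called higher and 82 lower, and with DESeq2's size factors 55 and 13. Those scalings moved the median log2 ratio of all windows from 0.08 to -0.23 and -0.74, and that of the 4 regions from 4.38 to 3.71 and 3.52. Leaving out a library leaves 1 for its protein, assumed to vary like the pair of the other, and changes which windows pass the filter. The median log2 ratio of all windows moved to -0.25 and -3.44 without the P11 and the P13 FMRP library. It moved to -2.43 and 0.42 without the P11 and the P13 Hu library. Counts of windows called higher or lower move with that median. The count was then 153 of 1119 without the P11 FMRP library, 292 of 973 (53 higher) without the P13 FMRP library, and 0 by edgeR of 1180 and of 816 without the P11 and the P13 Hu library (275 and 33 windows at an unadjusted p under 0.05).

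The tags of each region filled only part of its 1 kb and fell into short blocks with sharp edges. None lay on the opposite strand of the window. The 3 windows on either side, both strands, were empty but for 46 tags of the chr11 region's strand just below its lower edge (43 FMRP, 3 Hu) and a single Hu tag near the chr16 proximal region. Positions below count from 1 at the low-coordinate edge of the window, and a block is a run of bases covered at 10% or more of the highest coverage, by ungapped tags.

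In the chr11 region the FMRP Illumina tags formed 3 blocks, at positions 31 to 92, 99 to 167 and 182 to 343. The platforms used them differently. Tags centred at positions 101 to 200 were 25.7% and 26.9% of the region's tags in the P11 and P13 FMRP Illumina libraries but 2.08% to 12.8% in the 5 454 libraries. Tags centred at 201 to 300 were 22.7% and 24.9% on Illumina and 40.0% to 55.9% on 454. The Hu libraries, at 29.0% and 23.4% in the first window and 19.4% and 25.5% in the second, stood with the FMRP libraries of their own platform. The 2 ranges did not overlap between platforms in either window.

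In the chr3 region nearly all FMRP Illumina tags lay in blocks at positions 610 to 775 and 792 to 827, and the 454 blocks, at 615 to 760 and 787 to 825, coincided with them. A 100-nt window at 662 to 761 held 71.3% of FMRP tags on Illumina (95% Wilson interval 67.7 to 74.7), 71.1% on 454 (61.0 to 79.5) and 62.5% of the 32 Hu tags (45.3 to 77.1). The exact ends differed all the same. Of 631 FMRP Illumina tags 97 (15.4%) began at position 647, and of 90 tags on 454 none did, which allows a share of up to 3.33%. On 454 the commonest start was position 681, with 15 of 90 tags against 1 of 631 on Illumina. A further block upstream, at positions 493 to 563, passed the 10% rule in Hu only. That rule scales with the group's own highest coverage, 13 tags in Hu and 354 in FMRP on Illumina. Tags centred at 501 to 600 were 4 of 18 Hu tags at P13 but 0 of 14 at P11, so in Hu this block rests on the P13 library. In FMRP they were 11 of 387 tags at P13 and 1 of 244 at P11. At P13 FMRP thus had more tags there than Hu, 11 against 4, from fewer genomic tags (68178 against 98832).

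In the chr16 distal region the main stretch ran from position 576 to 789 in FMRP and to 788 in Hu on Illumina. Its lower part, with tags centred at 601 to 700, took 34.9% of FMRP tags at P11 (95% Wilson interval 25.7 to 45.4) and 56.7% at P13 (50.3 to 62.9). These intervals treat tags as independent, although only 120 of the 231 P13 tags had distinct positions, and there is 1 FMRP library per lysate, so the difference has no replicate check. The upper part, at 701 to 800, took 62.8% and 40.3%. On 454 the 24 tags were divided as 12 and 12 over the 5 libraries. A separate block at positions 223 to 263 took a larger share of the region's tags in Hu than in FMRP. It held 5 of 14 Hu tags at P11 and 3 of 20 at P13, against 2 of 86 and 4 of 231 FMRP tags of the same lysates and 0 of 24 tags on 454. Over both lysates that was 23.5% of Hu tags (95% Wilson interval 12.4 to 40.0) and 1.89% of FMRP tags (0.870 to 4.07). These are shares of the tags of a region chosen for its many FMRP tags. As counts the block held 8 Hu and 6 FMRP Illumina tags, and each Hu library had more genomic tags than the FMRP library of its lysate. Per library tag the block was therefore not richer in Hu over both lysates.

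On Illumina the chr16 proximal region was the most concentrated of the 4, with 170 of 179 FMRP tags in its busiest 100 nt, while on 454 that share was 65.6%, against 71.1% in the chr3 region. Its FMRP Illumina tags lay in blocks at positions 386 to 475 and 479 to 515, and of 179 tags 118 (65.9%) had their 3′ end on the same base, position 417. That base took 34 of 50 tags at P11 and 84 of 129 at P13. It took 7 of 12 Hu tags at P11 and 1 of 7 at P13. A second shared 3′ end, position 515, took 26 of 179 FMRP tags (14.5%) and 9 of 19 Hu tags (47.4%, 95% Wilson interval 27.3 to 68.3). On 454 none of 32 tags ended at 417, which allows a share of up to 9.38%, and 1 ended at 515. The 454 tags peaked at position 429 instead and most often began at 407, with 9 of 32 tags.

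**Figure D2:**
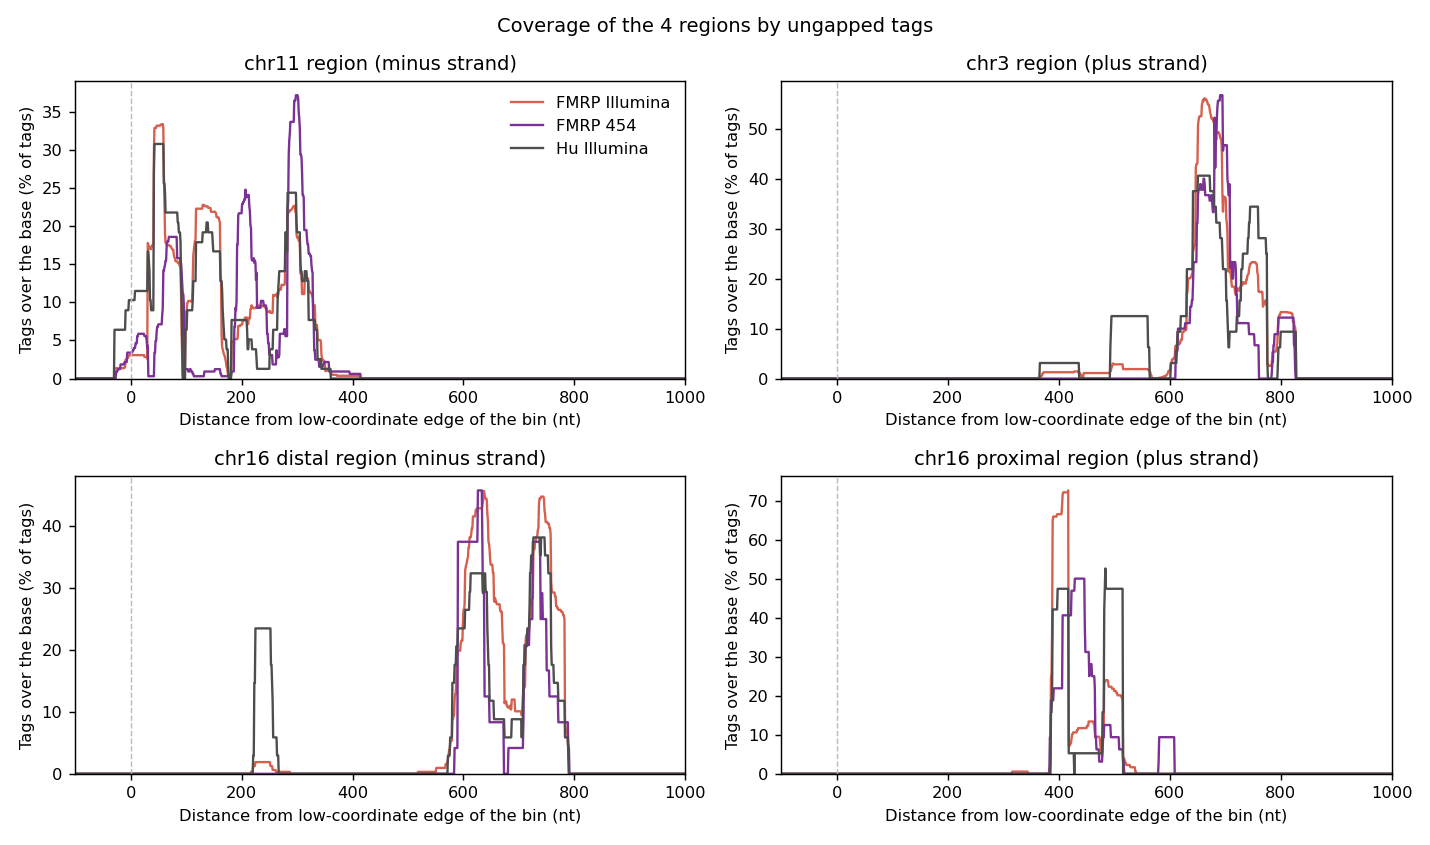
Share of the tags of each library group that cover a base (vertical axis, percent; ungapped tags) against the distance from the low-coordinate edge of the window (horizontal axis, nt) for the 4 regions. The chr11 block at 99 to 167 is nearly empty on 454. As a share of the region's tags, the chr16 distal block at 223 to 263 is tall only in Hu. In the chr16 proximal region the FMRP coverage on Illumina drops at 417.

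Tag width, which did not choose the regions, set the chr16 proximal region apart from the others on Illumina. Its median tag was 32.0 nt wide in both FMRP libraries and 32.0 and 34.0 nt in the P11 and P13 Hu libraries, where the other tags of these libraries had medians of 46.0, 50.0, 40.0 and 46.0 nt. These FMRP medians rest on few distinct positions, 15 of 50 tags at P11 and 34 of 129 at P13. With 1 tag per position the lowest difference of any FMRP library from its other tags was -9.50 nt, against -18.0 nt with all tags. The chr3 tags were wide, at 54.0 and 59.0 nt in the P11 and P13 FMRP libraries and 62.5 and 63.5 nt in Hu. The chr16 distal tags were at 53.0 and 71.0 nt in FMRP and 42.0 and 58.0 nt in Hu. No Illumina tag was wider than 74 nt, and 53.7% of the chr16 distal tags of the P13 FMRP library were 70 nt or more, against 16.2% of that library's other tags, so the width of the widest tags may not have been measured in full. The chr11 tags were near the rest, at 47.0 and 48.5 nt in FMRP and 44.0 and 49.0 nt in Hu.

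On 454 the order was another. The chr16 proximal tags had medians of 58.0 and 65.0 nt in the P14 polyclonal and P25 monoclonal libraries and 30.0 nt in the P25 polyclonal library, from 7, 12 and 5 tags. The chr3 tags had medians of 37.0 to 46.0 nt and the chr11 tags of 33.5 to 43.0 nt, where the other tags of these libraries had 32.0 to 39.0 nt.

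Over the 7 FMRP libraries, the median member tag of all 4 regions together was 2.57 ± 1.81 nt (SD, n = 7) wider than the median of the library's other tags, in 6 of 7 libraries, with an exact sign-flip permutation p of 0.0312 and an adjusted p of 0.0781 over 5 tests. The chr3 tags were 6.00 ± 4.65 nt wider (SD, n = 7; 6 of 7 libraries; exact permutation p 0.0312, adjusted p 0.0781). For chr11 the difference was 1.14 ± 1.97 nt (n = 7, exact permutation p 0.234), for chr16 distal 8.30 ± 8.21 nt (n = 5, exact permutation p 0.125) and for chr16 proximal 3.40 ± 21.5 nt (n = 5, exact permutation p 0.812). None passed after adjustment. The smallest p is 0.0156 with 7 libraries and 0.0625 with the 5 that held at least 5 tags of a chr16 region. For chr3 and for the 4 regions together the P15 monoclonal library had a difference of 0. The smallest permutation p that could be reached in those 2 tests was therefore 0.0312, the value found.

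The width result moved with how width was defined. Some 454 tags are gapped alignments whose ends lie far apart, up to 403103 nt, and counting aligned bases instead gave 3.00 nt for the 4 regions (7 of 7 libraries) and 6.57 nt for chr3 (7 of 7), both with an exact permutation adjusted p of 0.0391. Against the tags of the 20 in-gene windows with most FMRP tags, the 4 regions together were narrower by 2.07 nt on average (6 of 7 libraries, exact permutation adjusted p 0.117), and the chr11 tags by 3.50 nt (7 of 7 libraries, exact permutation adjusted p 0.0781).

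**Figure D3:**
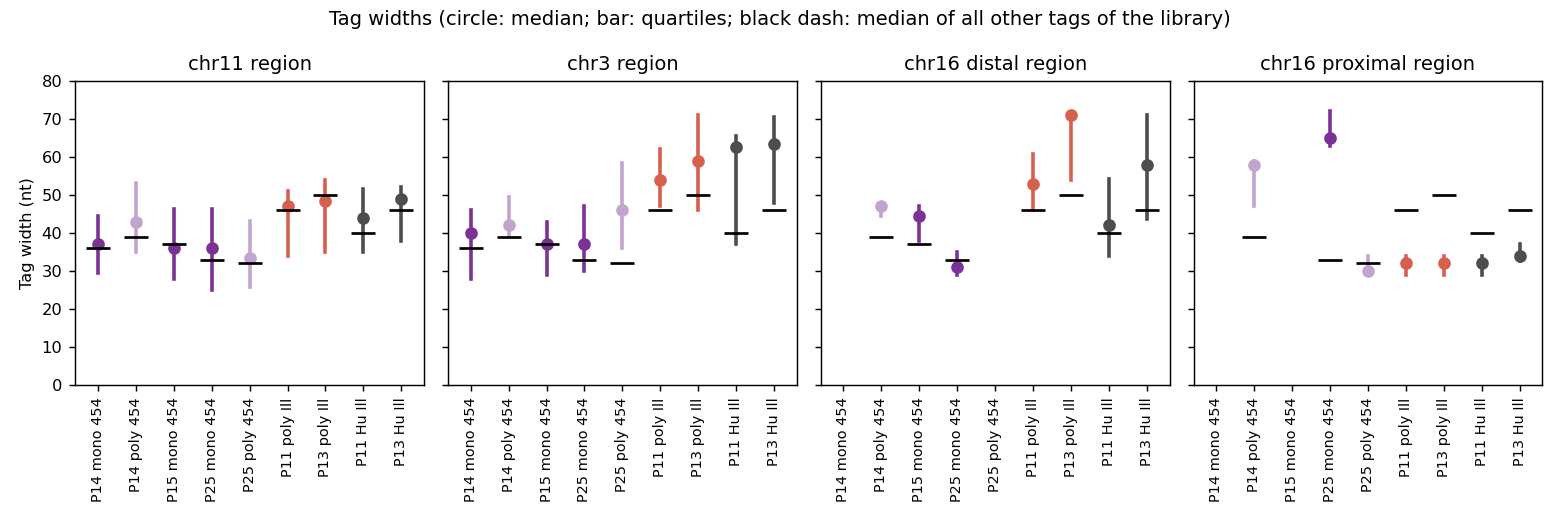
Tag widths in nt (vertical axis) by library (horizontal axis; mono, monoclonal; poly, polyclonal; Ill, Illumina) in the 4 regions, for libraries with at least 5 tags: circles are medians, bars run between the quartiles, and black dashes are the median of all other tags of the library. On Illumina the chr16 proximal circles, at 32.0 and 34.0 nt, lie under the dashes and the chr3 circles above them, while on 454 the chr16 proximal circles range from 30.0 to 65.0 nt.

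Many Illumina FMRP tags shared both ends with another tag of their library. The distinct positions were 120 of 269 and 186 of 542 tags of the chr11 region at P11 and P13, 128 of 244 and 175 of 387 of chr3, 68 of 86 and 120 of 231 of chr16 distal, and 15 of 50 and 34 of 129 of chr16 proximal. Over the whole P11 and P13 FMRP libraries the distinct positions came to 90.5% and 91.7% of the tags. In the chr16 proximal region a single position held 38 of the 129 tags at P13. No Illumina tag repeated another's position together with the 5 letters at the end of its name, in any of the 4 libraries. In the sparser Hu libraries the distinct positions were 83.9% and 83.0% of chr11 tags and 100% and 94.4% of chr3 tags at P11 and P13. They were 92.9% and 100% of chr16 distal tags, and 4 of 12 and 6 of 7 chr16 proximal tags. Sharing a position becomes likelier with more tags, so these shares cannot be set against those of FMRP.

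On 454 every listed tag has its own position, and a deposited count per tag, taken here as merged reads, shows how often it was read. The chr11 tags had a median of 3.00 to 4.50 reads in the 5 libraries, against 2.00 to 3.00 for the other tags of those libraries, and the highest was read 745 times, in the P14 polyclonal library. The chr16 proximal tags had a median of 1.00 read in 4 libraries and 3.00 in the P25 polyclonal library, and the chr3 medians ran from 1.00 to 5.00. Weighted by reads, the 4 regions made up 1.39%, 2.44%, 1.53%, 1.32% and 1.10% of the P14 monoclonal, P14 polyclonal, P15 monoclonal, P25 monoclonal and P25 polyclonal libraries. As tags they made up 0.793%, 1.22%, 0.962%, 0.856% and 0.636%. The chr11 region, at 0.870% to 2.21% of reads and 0.450% to 0.809% of tags, made up most of this difference. In the P14 monoclonal library the other 3 took a smaller share of reads than of tags, 0.126% and 0.176% for chr3, 0.0164% and 0.0406% for chr16 distal, and 0.00393% and 0.0542% for chr16 proximal, and the same order held for all 3 in the P25 polyclonal library. In the P15 monoclonal library all 3 went the other way, at 0.220% and 0.139%, 0.0887% and 0.0555%, and 0.0456% and 0.0370%. In the P14 polyclonal and P25 monoclonal libraries the order differed between the regions. Gapped alignments were 24 of 323 chr11 tags, 2 of 90 chr3, 2 of 24 chr16 distal and 9 of 32 chr16 proximal tags on 454. Gaps over 100 nt occurred in 8 chr11 and 4 chr16 proximal tags, in 3 and 2 libraries, and the widest were 146 and 476 nt.

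No difference between the antibodies was called in the 454 libraries. With the monoclonal mixture the chr11 region was at 60.5 ± 11.2 per 10000 tags (SD, n = 3) and with the polyclonal antibody at 62.7 ± 25.2 (SD, n = 2). The chr3 region was at 15.6 ± 1.87 and 19.8 ± 12.1. In edgeR's quasi-likelihood test the log2 difference, monoclonal less polyclonal, was -0.16 (SE 0.38, adjusted p 0.895) for chr11 and -0.48 (SE 0.50, adjusted p 0.895) for chr3, and both turned positive (0.35 and 0.37) without the P14 polyclonal library. Only 17 windows passed the filter in these small libraries, 0 (0%) were called, 0 had an unadjusted p under 0.05, and DESeq2 also called 0. Neither chr16 region passed the filter, and their levels, 4.55 ± 0.822 and 4.61 ± 2.55 for chr16 distal and 6.30 ± 3.21 and 5.54 ± 1.23 for chr16 proximal (SD, n = 3 and 2), overlapped.

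Age was compared in the same 5 libraries, P25 against P14 and P15 with the antibody as a term. The log2 difference by edgeR was -0.35 (SE 0.35, adjusted p 0.781) for chr11 and -0.47 (SE 0.47, adjusted p 0.781) for chr3, neither past the threshold, while 2 of 17 windows (11.8%) were called. Without the P25 monoclonal library the differences were -0.92 for chr11 and -1.40 for chr3. That fit leaves the P25 polyclonal library alone at its age, so no call is given from it. Without the P14 or the P25 polyclonal library the chr3 difference turned to 0.20 and 0.34. The count of called windows was 0 without the P14 monoclonal library (2 at an unadjusted p under 0.05) and 4 without the P14 polyclonal library.

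With the polyclonal antibody alone, Protocol 2 was set against Protocol 1, a contrast in which dissociation, platform and age cannot be told apart. The selection favoured windows high in the deeper Illumina libraries, which gave 317 of the 341 FMRP tags of the chr16 distal region, so the differences are given with no p. The log2 difference in edgeR's fit, Protocol 2 less Protocol 1, was 2.57 (SE 0.89) for chr16 distal, 1.56 (SE 0.65) for chr3, 1.49 (SE 0.87) for chr16 proximal and 0.21 (SE 0.49) for chr11. With 1 tag per position the chr16 proximal value turned to -0.20 and the chr11 value to -1.01, and the latter was -0.14 with DESeq2's size factors. Without the P13 FMRP library the differences were 1.57 for chr16 distal, 0.99 for chr3, 0.51 for chr16 proximal and -0.55 for chr11. In this comparison edgeR called 31 of 85 windows (36.5%, 13 higher and 18 lower in Protocol 2), and no call is given for the regions. The count of called windows by edgeR was 2 without the P14 and 0 without the P25 Protocol 1 library (6 at an unadjusted p under 0.05), and 1 and 15 without the P11 and the P13 Protocol 2 library. The antibody, age and protocol comparisons share the polyclonal 454 libraries, and the protocol and FMRP to Hu comparisons share the FMRP Illumina libraries.

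Set beside the other busiest windows, the 4 regions lay within the range of each kind in both their FMRP to Hu ratio and the concentration of their tags. Their busiest 100 nt held 46.2% (chr11), 51.6% (chr16 distal), 71.3% (chr3) and 90.5% (chr16 proximal) of all FMRP tags. These shares mix the platforms, in which chr11 was at 55.4% on Illumina and 23.2% on 454, chr16 distal at 52.1% and 45.8%, and chr16 proximal at 170 of 179 and 21 of 32 tags. In the 20 in-gene windows with most FMRP tags that share had a median of 37.9%, with a range of 17.6% to 100%, and in the 20 other windows outside genes a median of 98.8%, from 16.1% to 100%. The FMRP to Hu ratio ran from 1.40 to 160 in the 15 in-gene windows with a Hu tag, and 5 had none. With those 5 counted as highest, the in-gene median was 41.7, against 14.0 for the 4 regions. In-gene windows with a ratio of 62.2 or more, or with no Hu tag, had 17.6% to 27.1% of their tags in the busiest 100 nt. The remaining in-gene windows had 48.6% to 100% there and ratios of 1.40 to 21.2. In the other windows outside genes, which include chr17 and mitochondrial windows, it ran from 2.18 to 155, with a median of 10.6. The values above 24.0 there (155, 77.7 and 44.3) all came from adjacent windows at chr13:100200001-100203000 on the minus strand. Without these windows the chr3 region, at 27.9, would lie above that range. The busiest in-gene window, in the Mediator kinase gene Cdk8 (chr5:147072001-147073000, plus strand), had 595 FMRP tags, a ratio of 19.0 and 48.6% of its tags in 100 nt. The chr11 region had 1134 FMRP tags, a ratio of 14.7 and 46.2%.

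**Figure D4:**
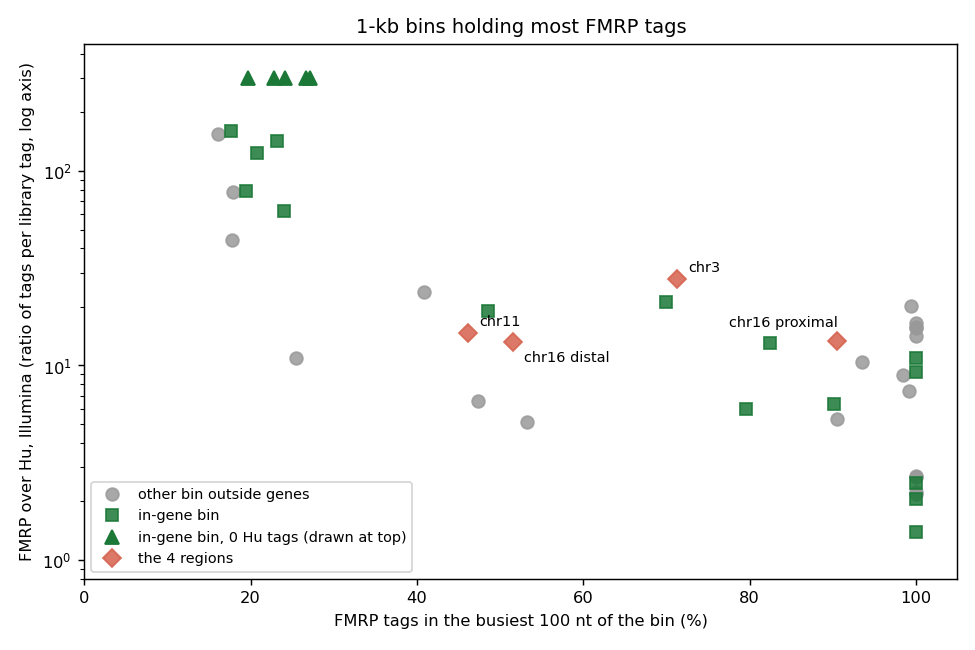
FMRP over Hu on Illumina (vertical log axis, ratio of tags per library tag) against the share of FMRP tags in the busiest 100 nt (horizontal axis, percent) for the 4 regions, the 20 in-gene windows and the 20 other windows outside genes that hold most FMRP tags; triangles at the top are the 5 in-gene windows with 0 Hu tags. The 4 regions sit between ratios of 13.2 and 27.9, inside the spread of both other kinds. No in-gene window lies between ratios of 21.2 and 62.2. Among the other windows outside genes, only adjacent chr13 windows stand above the chr3 region.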

How the data were processed

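The deposited genomic lists give 1 line per tag with its mm9 position; per the submitters' processing notes, reads were aligned with Novoalign (version not given in the sources used here). The 454 lists also hold a deposited count per tag, and the authors' gene table gave the gene bounds; its 14 columns of per-library values were not used. Tags were counted per 1-kb window and strand by their middle base. Counts were scaled by TMM and tested with edgeR 4.0.16 (quasi-likelihood, filterByExpr, Benjamini-Hochberg at 0.05; SE from log2 ratio and F); DESeq2 1.42.0 was the alternative. Width was tested over libraries with at least 5 tags by an exact sign-flip permutation test, two-sided. Intervals are 95% Wilson, or exact binomial for ratios, and cover counting error only. The 454 libraries of 7439 to 12153 tags limit precision: 3 tags there are 2.47 to 4.03 per 10000. The tests were checked on simulated data, where they recovered changes at a small spread between libraries, while at the spread fitted here the FMRP to Hu fit did not. Libraries of 1 group are separate pools of different ages, so the p-values measure the spread between these pools. FMRP and Hu libraries of 1 age came from 1 lysate, per the labels, and the P13 less P11 differences of the log2 levels correlated between the proteins at r = 0.64 over 540 windows (windows are not independent replicates), so the fit with the lysate as a block is given beside the comparison.

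The regions, gene lists and tests were chosen with earlier results of these data known. Named genes are those nearest on each side of a region; comparison windows were taken by rank of FMRP tags.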

Additional observations from a re-analysis of the deposited data

Results flagged for a closer look

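The P25 and younger 454 libraries differed in opposite directions with the 2 antibody preparations in the chr16 proximal region. With the monoclonal mixture its level was 9.87 tags per 10000 at P25 (12 tags), above 5.38 at P14 and 3.66 at P15 (4 tags each), a log2 difference of 1.13. With the polyclonal antibody it was 4.67 at P25 (5 tags) and 6.41 at P14 (7 tags), a log2 difference of -0.46. These differ by 1.58 on the log2 scale. The difference was not tested, since there is 1 library per age and antibody but for the young monoclonal pair, and the 95% Wilson intervals of all 5 libraries overlap. In the other 3 regions the libraries were not set apart in opposite directions in this way.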

How the results depend on the processing

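The median log2 FMRP to Hu ratio of the regions, 4.38, was 3.52 with DESeq2's size factors in edgeR, 3.54 with DESeq2, 3.55 without the filter and 3.49 with 1 tag per position. Leaving out a library gave 3.00 to 5.22, where the median of all windows ran from -3.44 to 0.42. Without the filter the median of all windows was -2.23, against 0.08 with it. Windows called in that comparison numbered 193 with library totals, 160 with DESeq2, 0 without the filter (2641 at an unadjusted p under 0.05, edgeR) and 0 to 292 with a library left out. With the lysate as a replicate block, 0 of 540 were called by edgeR (74 at an unadjusted p under 0.05), against 53 without the block. Without the filter, 5 windows were called for age and 0 for protocol (919 at an unadjusted p under 0.05, edgeR), and DESeq2 called 16 for protocol; with a library left out, 0 to 9 and 0 to 15. Regions under the threshold with a library left out numbered 0 to 2 for age. The 2 came from the fit that leaves the P25 polyclonal library alone at its age, from which no call is given. With tags placed by the 5′ end, 1 region, chr16 distal, fell under the threshold for protocol. The regions were selected on sums that hold the tags compared there, so this is not a call either.

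For antibody, leaving out a library gave -0.47 to 0.35 for chr11 and -0.93 to 0.37 for chr3, which was 1.09 with reads in place of tags. For age the ranges were -0.92 to 0.12 and -1.40 to 0.34. For protocol chr11 was -0.14 with DESeq2's size factors in edgeR and with DESeq2, -1.01 with 1 tag per position and -0.55 to 0.31 with a library left out, and chr16 proximal was -0.20 with 1 tag per position. The cause of these was not tested. The antibody fit with no filter could not be fitted with an abundance trend; without the trend, chosen after seeing the data, it called 0.

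Mean width in place of the median gave -196 nt for all 4 regions, and -201, -197, -156 and -145 nt for chr11, chr3, chr16 distal and chr16 proximal, since gapped 454 tags span long gaps: the mean of aligned bases, added after seeing the data like the median of aligned bases (3.00 nt), gave 3.10 nt. Against in-gene windows the differences were -2.07 nt together, -3.50 nt for chr11 and -2.40 nt for chr16 proximal. With Illumina alone they were -0.250 nt for chr11 and -16.0 nt for chr16 proximal, and leaving out a library gave -3.75 to 8.75 nt for chr16 proximal and 2.17 to 3.00 nt together. The median share of tags in the busiest window, 61.5%, was 96.4% with 200 nt. Depth limits the chr16 regions on 454, with 3 to 12 tags a library.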
